A study of Homo sapiens with 5 samples.

Results

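TNFRSF12A, the receptor for the cytokine TWEAK (also called Fn14), was read together with 9 other genes of the TNF receptor superfamily, TNFRSF10A, TNFRSF10B, TNFRSF10D, TNFRSF1A, TNFRSF21, TNFRSF11B, TNFRSF25, FAS and LTBR. These 10 genes are among the 26485 in the count files. They were selected on measured values, since the list was drawn up around the higher level of TNFRSF12A in the knockdown and with results of this comparison known. Their differences between the groups are therefore given as a description. Where the 10 are counted at a threshold, the count or share over all genes is given beside it, and nothing is read from such counts. The question put to the data was whether the higher level of TNFRSF12A was shared by its relatives.

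The cells were SW480, an established human colorectal cancer line, and in both groups they expressed dCas9-KRAB, a nuclease-dead Cas9 joined to a repressor domain that silences the genes to which a guide RNA directs it. The control group (2 libraries) received sgControls and the knockdown group (3 libraries) received sgAKAP12. RNA was extracted 48 hours after seeding and read from transcript 3' ends. Sample titles use the prefix sh in place of sg (shControl, shAKAP12), and the treatment protocol was followed for the description here. The number of guides, and whether the cells were a clone or a pool, are details not given in the sources here. AKAP12 encodes a scaffold that anchors protein kinases A and C.

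Receptors of this superfamily bind trimeric ligands of the TNF family through cysteine-rich repeats outside the cell. Some members carry a death domain inside the cell and can start apoptosis through FADD and caspase-8. Other members bind TRAF adaptors and turn on NF-kB and kinase pathways, and decoy members lack a working signalling tail and only hold the ligand. TNFRSF12A is the smallest of them and signals through TRAF proteins. In epithelium it is known as a receptor that is induced by growth factors and injury, and in colorectal cancer cells the TRAIL receptors TNFRSF10A and TNFRSF10B are known as drug targets.

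The small size of TNFRSF12A is visible in its coding sequence, and the stretches that hold its ligand-binding and its signalling part are shown for that reason. On chromosome 16 the gene spans 3020312 to 3022382 (hg38, plus strand). It overlaps no other gene of the count files, and its transcript TNFRSF12A-201 in GENCODE release 29 has 4 exons and 390 coding bases. In the first line, coding bases 1 to 240, which encode the signal peptide and most of the extracellular part, are printed 5′ to 3′ with the 6 cysteine codons of the single cysteine-rich repeat in capitals. In the second line, coding bases 301 to 390, the cytoplasmic end, have the 4 codons of the TRAF-binding motif (codons 113 to 116) in capitals.
TNFRSF12A coding bases 1 to 240: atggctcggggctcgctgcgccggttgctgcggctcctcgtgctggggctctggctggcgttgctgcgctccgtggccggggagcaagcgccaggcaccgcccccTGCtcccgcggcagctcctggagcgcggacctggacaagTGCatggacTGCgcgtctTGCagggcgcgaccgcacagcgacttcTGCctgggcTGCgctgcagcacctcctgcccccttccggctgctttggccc
TNFRSF12A coding bases 301 to 390: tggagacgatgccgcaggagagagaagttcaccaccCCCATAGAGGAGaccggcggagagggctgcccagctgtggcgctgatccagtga
The whole coding sequence held 129 codons, 8 of them for cysteine. The other 9 receptors had 386 (TNFRSF10D) to 655 (TNFRSF21) codons with 18 to 30 cysteine codons, because they carry several repeats and most of them a long cytoplasmic tail. GC content was 64.2% for the TNFRSF12A transcript, above the 39.1% (FAS) to 58.8% (TNFRSF25) of the other 9.

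Library totals ran from 4935096 to 9311026 reads, and the 10 receptors together took 910 and 2116 control reads and 2979, 2399 and 2651 knockdown reads. Levels are given as CPM, read counts brought to a common library total after TMM scaling, a factor that corrects for a few abundant genes taking up reads. Control 1 stood apart by the Pearson r of log2 CPM across genes. Its r was 0.90 with control 2 and 0.792 to 0.81 with the knockdown libraries, while the knockdown pairs reached 0.98. Control 2 had a higher r with the knockdown libraries (0.935, 0.93 and 0.916) than with control 1. TERT alone took 7.43% and 3.54% of control reads against 0.0451% to 0.249% of knockdown reads. The targeted gene AKAP12 was at 2870 and 1550 CPM in control libraries against 1159, 1063 and 1008 CPM in the knockdown (log2 fold change -1.04, SE 0.31, edgeR adjusted p = 0.0513; -0.52 without control 1). The 8 epithelial markers summed to 1030 and 1539 CPM in control libraries against 1353 to 1607 CPM in the knockdown, with CDX1 at 0 reads in every library. The 10 stromal markers summed to 866.2 and 754.3 against 619 to 716.1 CPM and the 11 blood markers to 126.9 and 155.2 against 112.4 to 142 CPM, none of them at 0 in all libraries. By edgeR 1 of 7 tested epithelial markers rose (KRT8), while 2 of 10 stromal (COL6A3, PDGFRA) and 3 of 11 blood markers (CD68, CSF1R, CD3D) fell. Of all tested genes 22.6% passed in either direction. The stromal sum was lower in every knockdown library than in both controls, but its members went both ways. Raw reads, not scaled for library totals, of COL1A2 (106 and 542 against 726, 596 and 569) and LUM (10 and 137 against 173, 145 and 223) were higher in every knockdown library. Those of COL6A3 (1695 and 1634 against 912, 846 and 612) and PDGFRA (354 and 536 against 317, 303 and 258) were lower. The 5 endothelial markers summed to 48.3 and 71.8 against 47.8 to 57.7 CPM. The part of these markers in the results was not tested. Whether replicates came from separate cultures is not stated in the labels, and p-values then reflect the spread among these libraries alone, which may be technical.

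TNFRSF12A was the receptor with the largest difference between the groups. It had 4 and 76 control reads and 730, 645 and 658 knockdown reads, which is 0.980 and 8.72 CPM against 74.7, 86.4 and 80.9 CPM. All 3 knockdown libraries lay close together and far above both controls, which themselves differed from each other by 2.85 on the log2 scale. The knockdown mean was 80.7 ± 5.83 CPM (SD, n = 3), and the fitted difference was 15.1-fold higher (log2 fold change 3.92, SE 0.67). The size rests on which control is used: it was 3.21 without control 1 and 6.33 without control 2, where the comparison is with 4 reads. From reads alone, the ratio of group sums was 12.8 with an exact 95% counting interval of 10.3 to 16.2, and this interval, like the others below, covers counting error only. In bulk RNA, more cells with the transcript and more transcript per cell cannot be told apart.

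**Figure D1:**
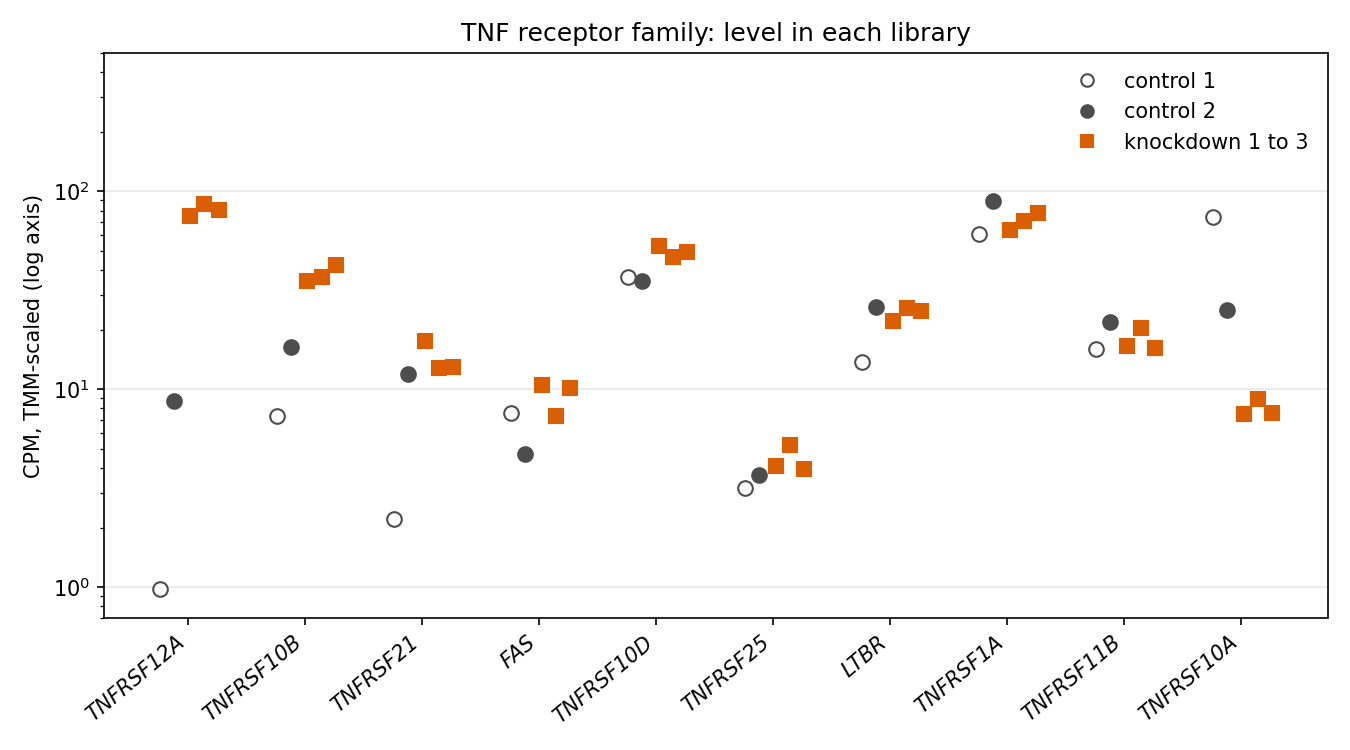
Level of each of the 10 receptors in each library (vertical axis, TMM-scaled CPM on a log axis), with open circles for control 1, filled circles for control 2 and squares for knockdown 1 to 3; genes are ordered by log2 fold change. TNFRSF12A sits at 74.7 to 86.4 CPM in the knockdown against 0.980 and 8.72 CPM in the controls, while TNFRSF10A at the other end is at 7.47 to 8.97 CPM against 74.0 and 25.2 CPM.

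The 4 genes for receptors of TRAIL, the ligand encoded by TNFSF10, lie next to each other in a cluster, and they did not move together. TNFRSF10A encodes death receptor 4, which carries a death domain. It had 302 and 220 control reads and 73, 67 and 62 knockdown reads, or 74.0 and 25.2 against 7.47, 8.97 and 7.62 CPM. Every knockdown library was below both controls, and the fitted level was 6.13-fold lower (log2 fold change -2.61, SE 0.44; -1.65 without control 1 and -3.21 without control 2). TNFRSF10B encodes death receptor 5, the other signalling TRAIL receptor, and moved the opposite way. Its control reads were 30 and 142 and its knockdown reads 343, 277 and 345, or 7.35 and 16.3 against 35.1, 37.1 and 42.4 CPM. The knockdown libraries were all above both controls, with a fitted level 3.15-fold higher (log2 fold change 1.66, SE 0.36; 1.23 without control 1 and 2.37 without control 2).

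TNFRSF10D encodes a decoy receptor with a truncated death domain. It was at 37.0 and 35.1 CPM in the controls, which hardly differed, and at 53.1, 46.7 and 49.6 CPM in the knockdown, a log2 fold change of 0.47 (SE 0.19). TNFRSF10C, the membrane-anchored decoy that was not among the 10, had 3 reads over all 5 libraries (0 and 2 in the controls, 0, 1 and 0 in the knockdown). The decoys thus rested on TNFRSF10D, and the summed level of the 4 genes showed no separation: 118.3 and 76.8 CPM in the controls against 95.7, 93.0 and 99.6 CPM.

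Within the pair of signalling TRAIL receptors the balance of counted reads was reversed. TNFRSF10A made up 91.0% of TNFRSF10A and TNFRSF10B reads in control 1 (302 of 332, exact Clopper-Pearson 95% interval 87.4% to 93.8%) and 60.8% in control 2 (220 of 362, 55.5% to 65.8%). In the knockdown it made up 17.6%, 19.5% and 15.2%. This share needs no scaling between libraries, and no knockdown interval reached those of the controls. It leaves out TNFRSF10A reads from the last stretch of its transcript, described below, which were not counted. The decoys held 31.3% and 46.0% of the reads of the 4 TRAIL receptors in control libraries against 55.5%, 50.4% and 49.8% in the knockdown.

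The cluster lies on chromosome 8 (hg38) in the order TNFRSF10B (23020136 to 23069187, minus strand), TNFRSF10C (23102814 to 23117437, plus strand), TNFRSF10D (23135591 to 23164030, minus strand) and TNFRSF10A (23191457 to 23225167, minus strand). The gap between TNFRSF10B and TNFRSF10A is 122.3 kb, and TNFRSF10D, whose log2 fold change was between theirs, is 27.4 kb from TNFRSF10A. Features of the gene models bear on these counts. The model of TNFRSF10A used for counting ends 1005 bases before the 3' end of its principal GENCODE transcript, so reads from that last stretch, where a 3' end protocol places most reads, were not counted for it. What this does to its value was not tested. For the other 9 receptors the same ends lay within 8 bases of each other. Exons of TNFRSF10B share 62 bases (1.49%) with RHOBTB2, whose log2 fold change was 0.61 (edgeR adjusted p = 0.215). Even if every RHOBTB2 read were shared, 142, 106 and 171 of the knockdown reads of TNFRSF10B would lie outside it. In the controls RHOBTB2 had more reads than TNFRSF10B (37 against 30 and 164 against 142), so this gives no bound there.

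**Figure D2:**
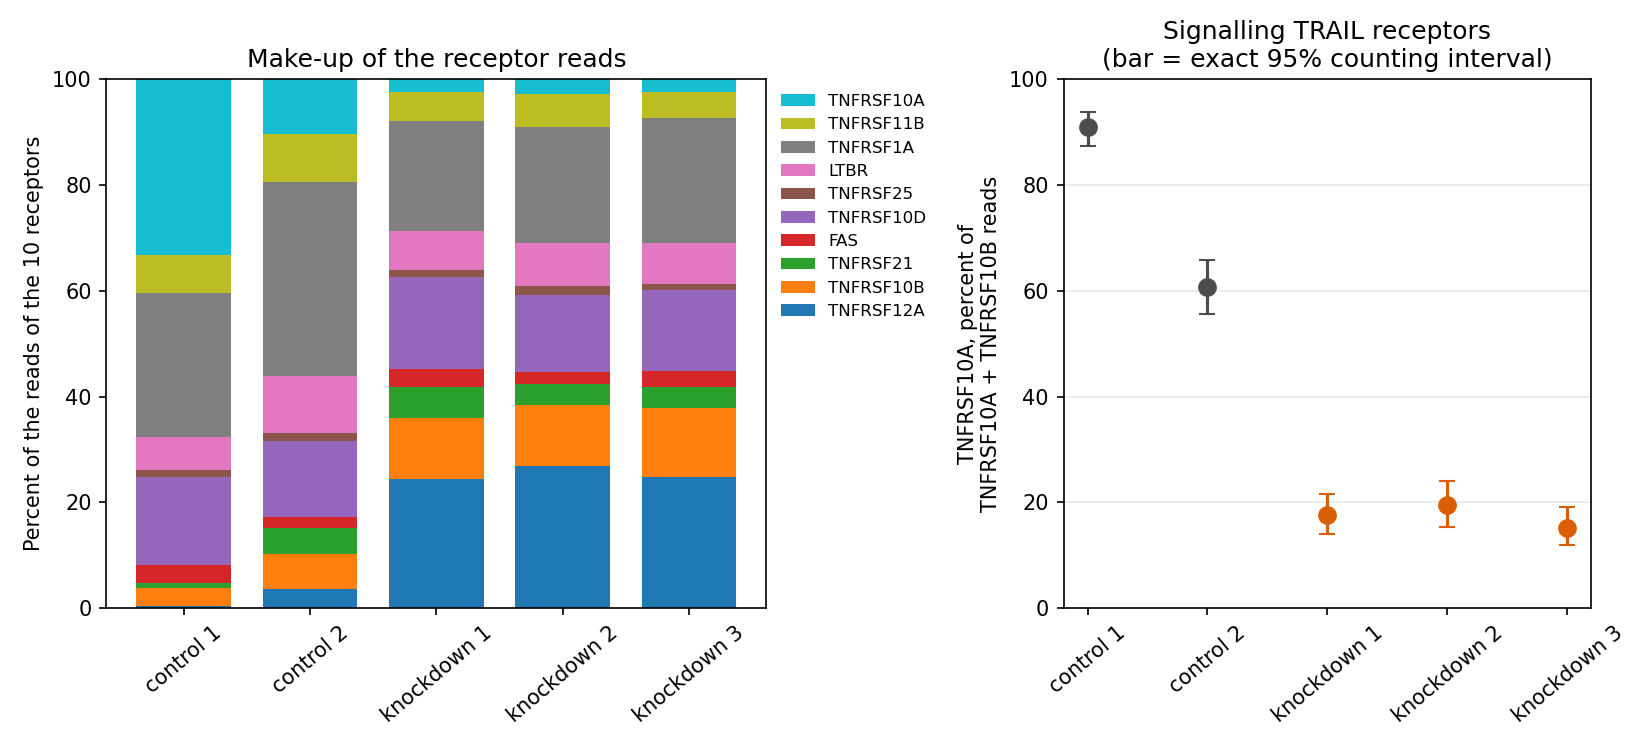
Left, the make-up of the reads of the 10 receptors in each library (vertical axis, percent; bars stack to 100%). Right, TNFRSF10A as a percent of TNFRSF10A plus TNFRSF10B reads, with exact 95% counting intervals. It is 91.0% and 60.8% in control libraries and 15.2% to 19.5% in the knockdown. Reads from the last stretch of the TNFRSF10A transcript were not counted.

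The death receptors outside the TRAIL group showed smaller differences. TNFRSF1A, the ubiquitous TNF receptor that signals through TRADD, was at 61.0 and 89.2 CPM in control libraries against 63.6, 70.5 and 77.5 CPM in the knockdown. The groups overlapped, with a log2 fold change of -0.10 (SE 0.23) that was 0.09 when libraries were scaled by their size only. FAS, the receptor for FAS ligand, was at 7.59 and 4.70 CPM against 10.6, 7.37 and 10.2 CPM. Knockdown 2 lay below control 1, so these groups overlapped too, and the log2 fold change was 0.64 (SE 0.35; 1.00 without control 1 and 0.30 without control 2).

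TNFRSF21, or death receptor 6, was at 2.21 and 11.9 CPM in control libraries against 17.6, 12.9 and 12.9 CPM in the knockdown. Its size depended on the control used: the log2 fold change of 0.95 (SE 0.58) was 2.71 against that library alone and 0.29 against control 2 alone. TNFRSF25, or death receptor 3, whose ligand is TNFSF15, had 13 to 40 reads per library and was at 3.18 and 3.67 CPM against 4.10, 5.22 and 3.93 CPM (log2 fold change 0.35, SE 0.37). Its exons share 104 bases (5.44%) with PLEKHG5, which had 28 to 122 reads per library, so most TNFRSF25 reads could not be set apart from it. PLEKHG5 itself fell by 1.56 on the log2 scale (edgeR adjusted p = 0.0304; 0.0522 by library size only).

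The remaining pair, LTBR and TNFRSF11B, are not counted among the death receptors. LTBR, the lymphotoxin beta receptor that feeds the alternative NF-kB pathway, was at 13.7 and 25.9 CPM in control libraries against 22.2, 25.9 and 24.8 CPM in the knockdown (log2 fold change 0.27, SE 0.31). Control 2 lay level with the knockdown libraries and control 1 below them, and the value was -0.09 without control 1. TNFRSF11B encodes osteoprotegerin, a secreted decoy for RANKL and TRAIL, and was at 15.9 and 21.9 CPM against 16.5, 20.4 and 16.1 CPM. Its groups overlapped, with a log2 fold change of -0.11 (SE 0.26; 0.08 by library size only).

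Over the 10 receptors, the knockdown libraries lay above both controls for 5 genes (TNFRSF12A, TNFRSF10B, TNFRSF10D, TNFRSF21, TNFRSF25), below both for TNFRSF10A, and overlapped them for TNFRSF1A, TNFRSF11B, FAS and LTBR. Groups that do not overlap were common in these data, at 60.1% of the 14536 tested genes. The median log2 fold change of the 10 was 0.41 against 0.04 over all tested genes. By the edgeR threshold (adjusted p of 0.05) TNFRSF12A and TNFRSF10B were higher and TNFRSF10A lower, 3 of 10, where 22.6% of all tested genes passed, 11.2% higher and 11.4% lower. The choice of the 10 used this contrast, so nothing is read from their count. Without any one knockdown library the edgeR threshold was passed by 0 of the 10 and by 0 of all genes, while 3 of the 10 and 3774 to 4109 of all genes had an unadjusted edgeR p under 0.05. The authors' deposited table, its direction read from this fit, gave log2 fold changes of 3.99 for TNFRSF12A, -2.65 for TNFRSF10A and 1.66 for TNFRSF10B. Signs matched for all 10. DESeq2 on these libraries gave the same 3 values, so the deposited table is no separate support.

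**Figure D3:**
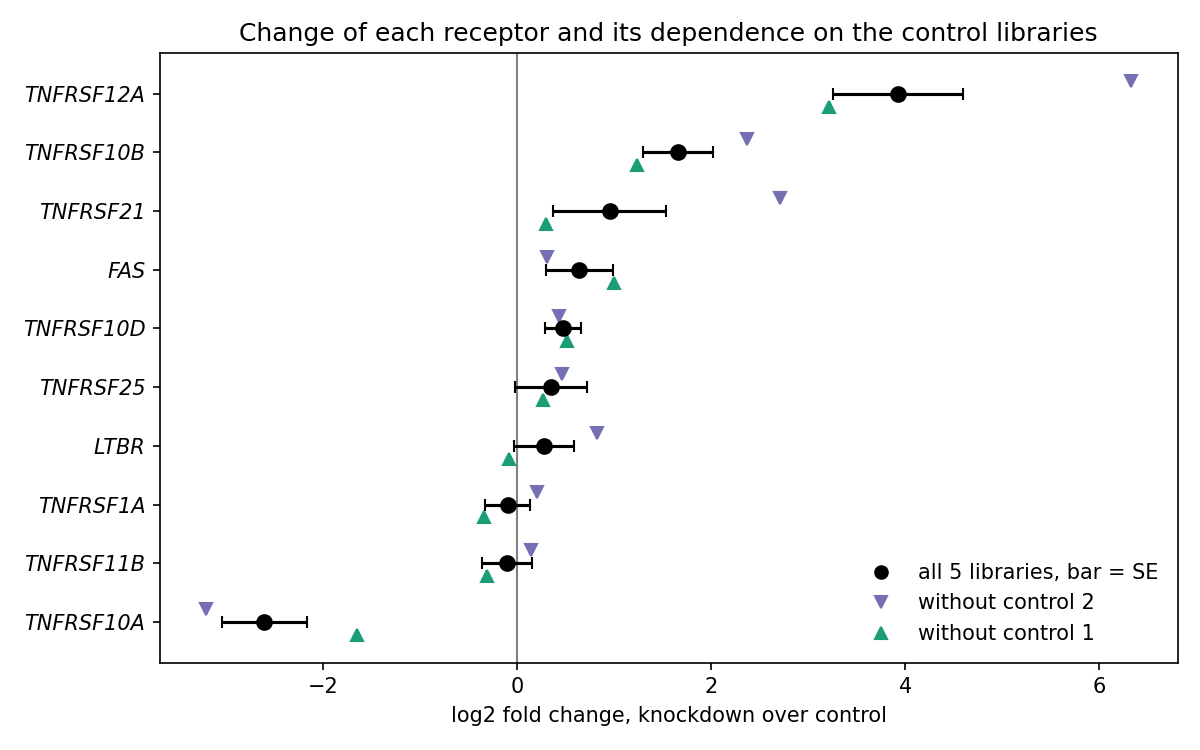
Log2 fold change of each receptor, knockdown over control (horizontal axis), from all 5 libraries (circles, bars are SE) and with control 1 (upward triangles) or control 2 (downward triangles) left out. TNFRSF12A runs from 3.21 to 6.33 and TNFRSF21 from 0.29 to 2.71, and the sign changes with the control left out for LTBR, TNFRSF1A and TNFRSF11B.

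The controls differed from each other in these genes by as much as many of the groups did. The median absolute difference between the 2 controls was 0.78 on the log2 scale for the 10 receptors and 0.64 for all tested genes, and 7 of the 10 were lower in control 1. Among the knockdown libraries the SD of log2 CPM had a median of 0.14 (0.09 to 0.28) against 0.18 for all genes. The low end of the control range was control 1 for TNFRSF12A, TNFRSF10B and TNFRSF21, and the high end was control 1 for TNFRSF10A.

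Summed over the 10 genes, receptor RNA was higher in the knockdown. The sum was 222.9 and 242.7 CPM in control libraries against 305, 321.3 and 325.9 CPM in the knockdown. Without TNFRSF12A it was 221.9 and 234 against 230.3, 234.9 and 245 CPM, so that the groups overlapped. Without both TNFRSF12A and TNFRSF10A the other 8 summed to 148 and 208.7 against 222.8, 225.9 and 237.4 CPM, with no overlap. TNFRSF10A, the receptor below both controls, was left out there on its own values, so nothing is read from this separation. Single genes did not overlap either for 60.1% of all tested genes. TNFRSF12A held 0.440% (exact Clopper-Pearson 95% interval 0.120% to 1.12%) and 3.59% (2.84% to 4.48%) of the reads of the 10 receptors in control libraries against 24.5%, 26.9% and 24.8% in the knockdown.

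Per kb of exon, TNFRSF12A moved from the sixth to the first place among the 10. Its level was 0.949 and 8.45 CPM per kb in the controls, a range that overlaps those of LTBR above it and TNFRSF10B below it, and 78.2 ± 5.65 CPM per kb (SD, n = 3) in the knockdown. In the knockdown the order went on with TNFRSF1A at 31.7 ± 3.12, TNFRSF10D at 14.1 ± 0.906, LTBR at 9.74 ± 0.751, TNFRSF10B at 9.21 ± 0.909 and TNFRSF11B at 7.52 ± 1.00 CPM per kb (SD, n = 3 each). The ranges of LTBR and TNFRSF10B overlapped, as did those of TNFRSF10B and TNFRSF11B. TNFRSF10A followed at 4.59 ± 0.472, TNFRSF21 at 3.97 ± 0.749, FAS at 3.49 ± 0.649 and TNFRSF25 at 2.31 ± 0.367 CPM per kb (SD, n = 3 each), with overlap between TNFRSF10A and TNFRSF21 and between TNFRSF21 and FAS. In the controls TNFRSF1A (27.4 and 40.1 CPM per kb) and TNFRSF10A (42.3 and 14.4) stood first and overlapped. TNFRSF10D (10.5 and 9.93) came next, clear of its neighbours in rank, but the range of LTBR (5.50 and 10.39) reached into it. From TNFRSF11B downward the ranges of each pair of neighbours overlapped there. A 3' end count does not grow with transcript length, so the scaling per kb raises the place of TNFRSF12A, with 1032 exon bases the shortest of the 10, in the controls. In the knockdown it was first by CPM as well.

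The ligand of TNFRSF12A, TWEAK, is encoded by TNFSF12. There were 3 and 2 control reads and 23, 14 and 19 knockdown reads. Counts were few in every library. TNFSF12 passed the read-count filter on its knockdown reads, so with these control reads only a rise could be tested. The ratio of group sums was 5.65 with an exact 95% counting interval of 2.28 to 18.1. The log2 fold change was 2.36 (SE 0.69, edgeR adjusted p = 0.04999), at the very edge of the threshold, and it missed it with DESeq2 (adjusted p = 0.0648), limma-voom (0.0613), RLE scaling (0.0532), no filter (0.0641) and GC offsets (0.0524). It was 3.18 without control 1 and 1.55 without control 2. Its exons overlap the read-through gene TNFSF12-TNFSF13, to which shared reads were also counted. The adaptor TRAF2, to which TNFRSF12A binds, was at 21.6 and 27.6 CPM against 22.9, 18.9 and 24.5 CPM (log2 fold change -0.16, edgeR adjusted p = 0.644; 0.03 by library size only).

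The counts in the lists that follow are to be read against all tested genes, of which edgeR called 11.2% higher and 11.4% lower (19.8% and 20.7% at an unadjusted p under 0.05) and DESeq2 12.6% and 12.7%. Of 18 TNF family ligand genes 12 could be tested, and TNFSF12 was the one past the threshold, or 8.33% against 22.6% of all tested genes (1 higher and 0 lower by edgeR, also 1 and 0 at an unadjusted p under 0.05, and 0 and 0 by DESeq2). This call is of a gene kept for testing by its knockdown reads. The median log2 fold change of the 12 was 0.37. TNFSF10, the TRAIL gene, was at 12.5 and 2.98 CPM in control libraries against 5.43, 8.04 and 5.29 CPM in the knockdown, with overlap of the groups. LTB, which encodes the lymphotoxin that binds LTBR, was at 0.73 on the log2 scale (edgeR adjusted p = 0.240; 0.32 without control 1 and 1.5 without control 2). TNFSF14, which encodes LIGHT, another LTBR ligand, had 0 and 23 control reads and 56, 25 and 28 knockdown reads (1.43 on the log2 scale, edgeR adjusted p = 0.259, and 0.68 when control 1 was left out), and LTA had 0 and 13 against 10, 20 and 27 (1.35, edgeR adjusted p = 0.329; 0.62 without control 1). Control 1 was at 0 reads for both, which allows up to 0.608 CPM there, and no fold is given against it alone. Ligands of the other receptors were scarce: TNF had 3 reads in all, FASLG 7 and TNFSF15 6, all of them untested.

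Among the other 19 receptors of the superfamily, 11 could be tested, 1 rose and 3 fell, with a median of -0.41. The calls were 36.4% of those tested, against 22.6% of all tested genes. TNFRSF1B, the second TNF receptor, which lacks a death domain, fell from 396.1 and 480.6 CPM to 266, 217 and 221.1 CPM (log2 fold change -0.90, SE 0.21, edgeR adjusted p = 0.0293; 0.0775 by library size only). TNFRSF14, the receptor for LIGHT, fell from 23.5 and 13.8 CPM to 5.53, 6.97 and 7.01 CPM (log2 fold change -1.51, edgeR adjusted p = 0.0249). EDAR, the ectodysplasin receptor, fell from 34.1 and 19.4 CPM to 8.19, 7.10 and 12.5 CPM (log2 fold change -1.51, edgeR adjusted p = 0.0309). TNFRSF19, an orphan receptor known as a Wnt target, rose from 7.10 and 4.13 CPM to 12.6, 14.6 and 14.5 CPM (log2 fold change 1.34, edgeR adjusted p = 0.0335; 0.0650 with GC offsets). Exons of TNFRSF1B overlap MIR7846 and those of TNFRSF14 overlap LOC115110, and strand was not used in counting. Over all 29 receptors the summed level was 833.3 and 916.3 CPM in control libraries against 716.2, 680.9 and 703.7 CPM in the knockdown. Without TNFRSF1B the sum, which still held TNFRSF12A, was 437.2 and 435.7 against 450.3, 463.9 and 482.7 CPM. Without TNFRSF12A it was 832.4 and 907.5 against 641.5, 594.5 and 622.8 CPM. TNFRSF12A held 0.980 and 8.72 CPM of the sum without TNFRSF1B in the controls against 74.7, 86.4 and 80.9 CPM in the knockdown. Taking TNFRSF12A away too would leave the rest lower in every knockdown library than in both controls. TNFRSF12A was chosen on this contrast, so nothing is read from the higher sum without TNFRSF1B.

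Of 22 adaptor and kinase genes that work inside the cell below these receptors, 2 rose and 0 fell by edgeR (4 and 0 at an unadjusted p under 0.05, and 3 and 0 past the threshold by DESeq2), with a median of -0.04. The edgeR calls were 9.09% of these genes, against 22.6% of all tested genes. MAP3K7, which encodes the kinase TAK1, rose from 19.1 and 16.1 CPM to 44.1, 48.4 and 48.2 CPM (log2 fold change 1.42, SE 0.22, edgeR adjusted p = 0.0158). BIRC2, which encodes cIAP1, a ubiquitin ligase recruited with TRAF2, rose by 0.98 on the log2 scale (edgeR adjusted p = 0.0415; 0.0501 by library size only and 0.107 with GC offsets). TRAF4 was at 1.34 on that scale (edgeR adjusted p = 0.0515; 0.0202 by DESeq2; 0.93 without control 1 and 2.09 without control 2), and RBCK1, a subunit of the linear ubiquitin ligase, at 0.92 (edgeR adjusted p = 0.0689; 0.60 without control 1 and 1.42 without control 2).

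Of 17 tested genes of the death machinery 3 rose and 3 fell by edgeR, 35.3% against 22.6% of all tested genes (3 and 6 at an unadjusted p under 0.05, and 3 and 4 past the threshold by DESeq2). CASP9, the initiator caspase of the mitochondrial route, rose from 2 and 6 reads to 58, 40 and 47 reads (log2 fold change 3.18, SE 0.46, edgeR adjusted p = 0.0148), with values of 3.02 and 3.49 when either control was left out. CASP9 passed the read-count filter on its knockdown reads. A gene this low in the controls could be tested only if it was higher in the knockdown. With no filter the log2 fold change of CASP9 was 3.20 (edgeR adjusted p = 0.00347). BID, which caspase-8 cuts to link death receptors to mitochondria, rose from 20.3 and 29.9 CPM to 61.9, 66.7 and 81.4 CPM (log2 fold change 1.47, edgeR adjusted p = 0.0192). BAX, the pore-forming effector at mitochondria, fell by 2.14 on the log2 scale (edgeR adjusted p = 0.0241; -1.09 without control 1), and DFFA, the inhibitor of the caspase-activated DNase, fell by 1.14 (edgeR adjusted p = 0.0201).

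The NF-kB lists were mixed as well. In the core list 13 genes were tested, 1 rose and 1 fell. NFKBIA, which encodes the inhibitor of NF-kB and is itself an NF-kB target, rose by 1.20 on the log2 scale (edgeR adjusted p = 0.0399; 0.0552 by library size only; 1.79 without control 2), and TNIP1, which restrains the pathway together with A20, fell by 1.20 (edgeR adjusted p = 0.0206). Of 13 tested NF-kB targets 2 rose and 3 fell, with a median of -0.35. NFKBIA is in both lists and is counted in each. The calls were 15.4% of the tested core genes and 38.5% of the tested targets, against 22.6% of all tested genes. SOD2, the mitochondrial superoxide dismutase, rose by 1.16 (edgeR adjusted p = 0.0221). The cytokine gene IL32 fell by 1.13 (edgeR adjusted p = 0.0231), the stress response gene IER3 by 1.05 (edgeR adjusted p = 0.0335; 0.0714 by library size only) and the survival gene BCL2L1 by 2.24 (edgeR adjusted p = 0.0264; -0.99 without control 1). BCL2L1 overlaps ABALON.

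Genes that act on the receptor proteins, by shedding or glycosylation, had 1 rise and 1 fall among 6 tested. The calls were 33.3% of these, against 22.6% of all tested genes. TIMP3, an inhibitor of the sheddase ADAM17, rose by 0.98 (edgeR adjusted p = 0.0394; 0.0516 by library size only). FUT8, a fucosyltransferase whose exons overlap FUT8-AS1, fell by 0.88 (edgeR adjusted p = 0.0398; 0.0663 by library size only). ADAM17 itself, which cleaves TNF and TNF receptors from the cell surface, was at -0.74 (edgeR adjusted p = 0.0816; 0.0362 with GC offsets; -0.32 without control 1).

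**Figure D4:**
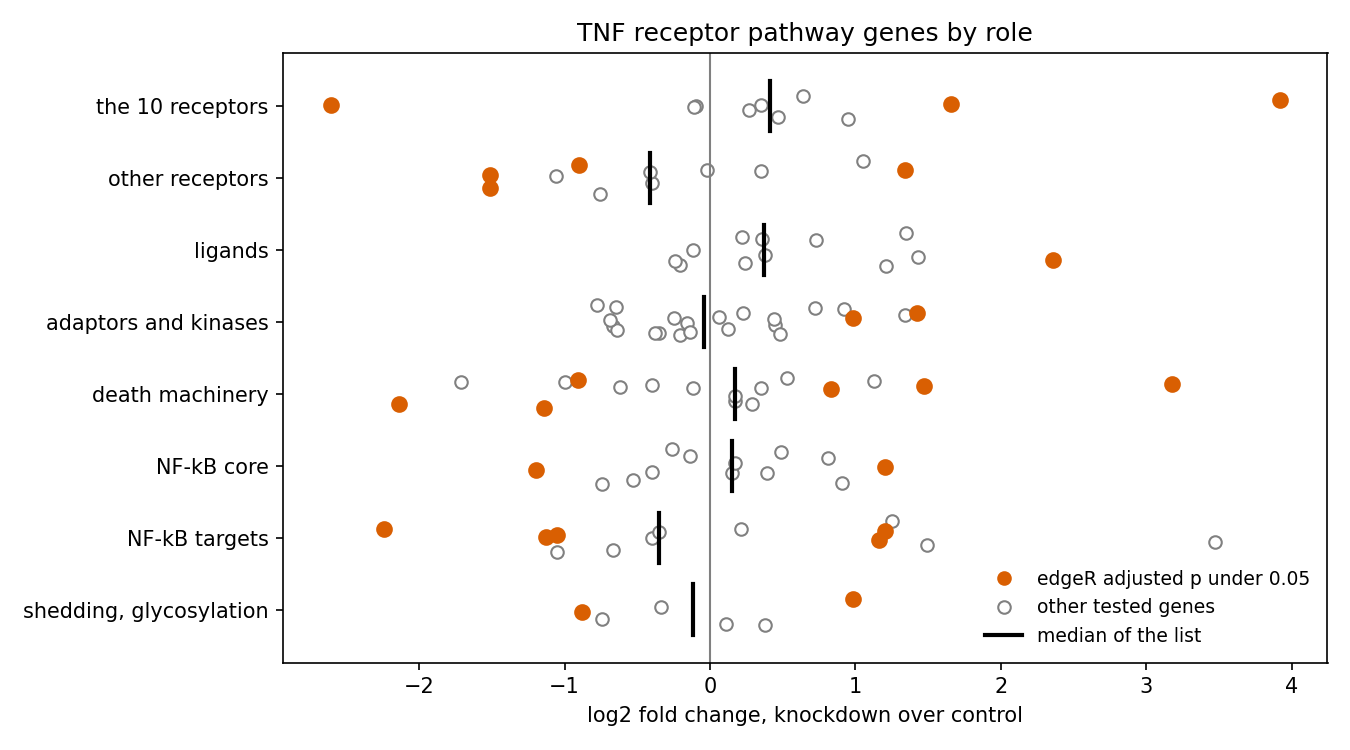
Log2 fold change, knockdown over control (horizontal axis), of every tested gene of the 10 receptors and of 7 lists of related genes; filled points have an edgeR adjusted p under 0.05, open points do not, and the bar is the median of the list. Medians lie between -0.41 (other receptors) and 0.41 (the 10 receptors), and apart from ligands and adaptors each group has filled points on both sides of 0.

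LTBR and TNFRSF1A are neighbours of CD9 on chromosome 12, a gene with a log2 fold change of 4.22 (SE 0.34). CD9 (6200316 to 6238271) was at 19.1 and 12.9 CPM in control libraries against 222.5, 320.8 and 339.7 CPM in the knockdown. TNFRSF1A (6328757 to 6342117, minus strand) starts 90.5 kb beyond it and LTBR (6375368 to 6391571, plus strand) another 33.3 kb further on, and neither showed a difference of that kind. LTBR shares 90 exon bases (3.61%) with SCNN1A. Even if all SCNN1A reads were shared, 151 to 160 LTBR reads in each knockdown library would lie outside SCNN1A. The same bound was 7 and 148 reads in the controls. The other receptors are spread over the genome, with TNFRSF21 on chromosome 6 (47231527 to 47309947), TNFRSF25 on chromosome 1 (6461154 to 6466195), FAS on chromosome 10 (88990531 to 89015785) and TNFRSF11B on chromosome 8 (118923557 to 118952144).

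Genes with levels closest to those of TNFRSF12A over the 5 libraries were found by the Euclidean distance between log2 CPM values after subtracting the mean of each gene. This distance keeps the size of the differences between libraries as well as their shape. The closest were PFN1 (0.439), an actin monomer binding protein, SF3B4 (0.553), a splicing factor, CAPN12 (0.601), a calpain, CECR5 (0.654) and SLC25A5 (0.739), the mitochondrial ADP/ATP carrier. All 5 had control 1 below control 2 and the knockdown above both, as TNFRSF12A did, which follows from how they were picked. CAPN12 overlaps ACTN4, CECR5 overlaps CECR5-AS1 and SLC25A5 overlaps SLC25A5-AS1. Of the other 9 receptors the nearest was TNFRSF10B at rank 1021 (distance 3.33), followed by TNFRSF21 at rank 1311, and TNFRSF10A was at rank 14392. By shape alone TNFRSF10B was not remote. Its Pearson r with TNFRSF12A over the 5 libraries was 0.9961, against 0.9929 to 0.9967 for the 5 closest genes. For TNFRSF21 it was 0.8926 and for TNFRSF10A -0.9954. TNFRSF10B had the same order, control 1 lowest, control 2 next and the knockdown above both, with smaller differences between them.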

How the data were processed

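RNA 3' ends of SW480 cells were counted in 2 control and 3 knockdown libraries. Reads were aligned by the authors to hg38 with STAR 2.7, per the submitters' processing notes, and counted whole reads over exons with featureCounts 1.6.2, per the file headers, which show reads on several genes counted for each and no strand option. How reads were trimmed, and any molecular identifiers, are not stated in these sources. The authors' deposited table holds, per its header, a mean signal, log2 fold changes with SE, p-values and a test statistic (a score). The notes name DESeq2 1.22. The direction of its fold change is not stated and was read from its correlation with the fit (Pearson r = 0.999 across 14536 genes).

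The deposited counts were filtered (filterByExpr, minimum count 10, which left 14536 genes), scaled by TMM and fitted in edgeR 4.0.16 under R 4.3.3 (quasi-likelihood, two-sided, no covariates). All 10 receptors passed this filter. P-values were adjusted by Benjamini-Hochberg over all tested genes, with a threshold of 0.05. SE is the absolute log2 fold change over the square root of F. An exact permutation test of 2 libraries against 3 has a smallest p of 0.1. The procedure was tested on simulated data. A count of 0 allows up to 0.608 CPM in control 1, taking 3 reads as the limit. No libraries agreed within sampling noise (chi-square per degree of freedom 103.9 between the controls and 5.297 to 8.674 within the knockdown).

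The receptors and the gene lists were chosen with earlier results of these data known. Named genes were the 10 receptors, AKAP12, TNFSF12, TRAF2, up to 4 genes of each list with the smallest p, genes overlapping a receptor, and the 5 nearest patterns. CD9, TNFRSF10C, TNFSF10, TNF, FASLG, TNFSF15, COL1A2, LUM and the marker genes past the threshold were named after their values were seen. Some members of the lists are not reported here by name. The fit was repeated with DESeq2 1.42.0, limma-voom (limma 3.58.1), scaling by RLE or by library size only, a stricter filter (5 CPM in 2 or more libraries), no filter, removal of TERT and short RNA genes, the replicate number as a block, and each library left out. GC offsets (loess span 0.2, GC known for 94.4% of tested genes) were added after the data were seen. Coding sequences and transcript GC came from GENCODE release 29 (GRCh38).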

Additional observations from a re-analysis of the deposited data

How the results depend on the processing

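The 10 receptors were chosen on this contrast, so their values here are a description. The log2 fold changes of TNFRSF12A, TNFRSF10A and TNFRSF10B had the same sign in every fit tried. The stricter filter did not test TNFRSF25 or TNFSF12. With library size only, TNFRSF1A was 0.09, TNFRSF11B 0.08 and TRAF2 0.03, and the lists had 1 call (adaptors), 1 (NF-kB core), 3 (NF-kB targets) and 0 (shedding). The median over all genes moved to 0.23 there (1668 higher, 982 lower, against 1624 and 1658) and to -0.12 with GC offsets (1322 higher, 1955 lower). Calls among the ligands were 0 with DESeq2, limma-voom, RLE scaling, no filter, the stricter filter and GC offsets. AKAP12 passed the threshold with DESeq2 (-1.06), limma-voom (-0.98), no filter (-1.0), the stricter filter (-1.06), removal of TERT and short RNA genes (-1.04) and GC offsets (-1.21).

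The replicate numbers are shared by 2 controls and 2 knockdown libraries. Deviation r was -0.053 and -0.0813 for same-numbered libraries. With 2 controls the other control gives the same value with the sign turned, so r cannot show whether same-numbered libraries share a batch. With the replicate block, 210 genes passed, 1 of the 10 receptors (TNFRSF12A, 4.38), and 0 in every other list (0 to 7 of each at an unadjusted edgeR p under 0.05). TNFRSF10A was at -2.40 and TNFRSF10B at 1.69, both outside the threshold there.

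With 1 knockdown library left out, edgeR calls were 0 over all genes, over the 10 receptors and in each list (3774 to 4109, 3 and 1 to 7 at an unadjusted p under 0.05). Fits with 1 control are values with no test. Over all libraries left out in turn, the log2 fold change ran from 3.21 to 6.33 for TNFRSF12A, -3.21 to -1.65 for TNFRSF10A, 1.23 to 2.37 for TNFRSF10B, 0.42 to 0.51 for TNFRSF10D, -0.34 to 0.20 for TNFRSF1A, 0.29 to 2.71 for TNFRSF21, -0.31 to 0.14 for TNFRSF11B, 0.22 to 0.46 for TNFRSF25, 0.30 to 1.00 for FAS, -0.09 to 0.82 for LTBR and -1.42 to -0.52 for AKAP12. Depth limits TNFSF12, TNFRSF12A in control 1 and the untested ligands, which had few reads.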
